A study of Oncorhynchus mykiss with 43 samples.

Results

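The late-recovery clones are 74 trout cDNA clones whose signal in fast muscle was still near the fasted level 4 days after food was given back and was higher at 11 and 36 days. They were found among the 1561 clones that had a value in 5 or more fish of each of the 5 groups, out of 9023 clones on the array. For each clone the mean log2 intensity of fasted fish was subtracted from that of a refed group, and a clone was kept when the difference was below 0.25 at 4 days, at least 0.3 at 11 days and at least 0.4 at 36 days. These limits were met by 76 clones, of which 2 were left out by name, as were 2 further clones that did not meet them. The differences at 4, 11 and 36 days therefore chose the clones and are given as a description, with no test. The fish refed for 7 days played no part in the choice.

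Fast muscle was taken beneath the dorsal fin of 1-year-old rainbow trout (Oncorhynchus mykiss) of a spring strain. The 5 groups were trout deprived of food for 1 month (8 fish), and trout of the same fasted stock then given 3 times the normal ration and sampled after 4 (9 fish), 7 (9 fish), 11 (8 fish) and 36 days (9 fish). The 33P-labelled cDNA of every fish had a nylon array to itself, so that the 43 arrays are 43 animals and p-values measure the spread between them. No group was fed throughout, every fish had been fasted, and the water was cooler at each later sampling, so that refeeding time, age, season and temperature cannot be told apart. The arrays listed a value for 1441 to 2616 clones each, with group medians of 2175 in fasted fish and 2372, 2200, 2149 and 2133 at 4, 7, 11 and 36 days, and the number of arrays limits the precision. As to the labelled tissue, clones of skeletal troponin C, nebulin and skeletal myosin light chain 1 had a value in all 43 fish. The clone of skeletal alpha-actin was listed in 24 of them. These were all 8 fasted fish and all 9 fish of 4 days, but 3 of 9 at 7 days, 0 of 8 at 11 days and 4 of 9 at 36 days. Where it was listed its median intensity was 14.7, and the paper puts skeletal actin among the genes raised from 7 to 36 days. A missing value of this clone is thus not read as a low level of its transcript. A cardiac troponin T clone was also listed in all 43, a cardiac myosin light chain 1 clone in 42 and a cardiac beta-myosin heavy chain clone in 1, while the white-cell factor Spi-1 was listed in 0. The paper, however, names PU.1, another name of Spi-1, among the genes up-regulated in recovery. The empty clone is thus not read as absence of white cells. A slice of muscle holds several cell types, and fewer cells of a type cannot be told apart from less RNA per cell.

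Fasting makes fish muscle break down its own protein, and refeeding is followed by a period of fast growth known as compensatory or recovery growth. From transcripts of these same fish, the paper reports an early rise of genes for making RNA and protein in that period. Genes of the myosin and actin filaments that produce force rose later in its account. Membrane and secreted proteins made during growth are processed in the endoplasmic reticulum and the Golgi apparatus, while actin outside the filaments shapes the cytoskeleton of muscle precursors and of other cells of the tissue. The table names clones only by their library position, and 10 of the 74 could be named from clone labels that the study printed for genes it selected on these same fish. They comprise the light chains of the myosin motor (myosin light chain 1, myosin regulatory light chain 2), proteins of the actin cytoskeleton (myosin-10, Arp2/3 complex subunit 3), regulators of transcription (Twist-related protein 2, SOX-11, LMO4) and enzymes or carriers of the reticulum and Golgi (oxysterol-binding protein 1, protein-S-isoprenylcysteine O-methyltransferase, N-acetyllactosaminide alpha-1,3-galactosyltransferase). That choice leaves these names as no independent evidence of direction, and 64 clones remain without a gene name. A RefSeq gene table of the trout matched 0 of the 74 clone names.

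The differences of the 74 clones from fasted fish were modest in size. Their median on the log2 scale was 0.12 on day 4 of refeeding (range -0.13 to 0.248), 0.34 on day 7 (0.04 to 0.66), 0.51 on day 11 (0.31 to 0.98) and 0.66 on day 36 (0.40 to 1.00). Over all 1561 clones the medians at these times were -0.03, -0.02, 0.01 and -0.05. At 36 days 0 of the 74 clones had a mean log2 difference of 1 or more, which would be 2 times the fasted level. The values next to the limits were close: the last clone inside and the first outside stood at 0.248 and 0.255 for the limit on day 4, at 0.307 and 0.293 for day 11, and at 0.401 and 0.389 for day 36. A further 44 clones failed the limit at 4 days alone, 63 that at 11 days alone and 68 that at 36 days alone.

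**Figure D1:**
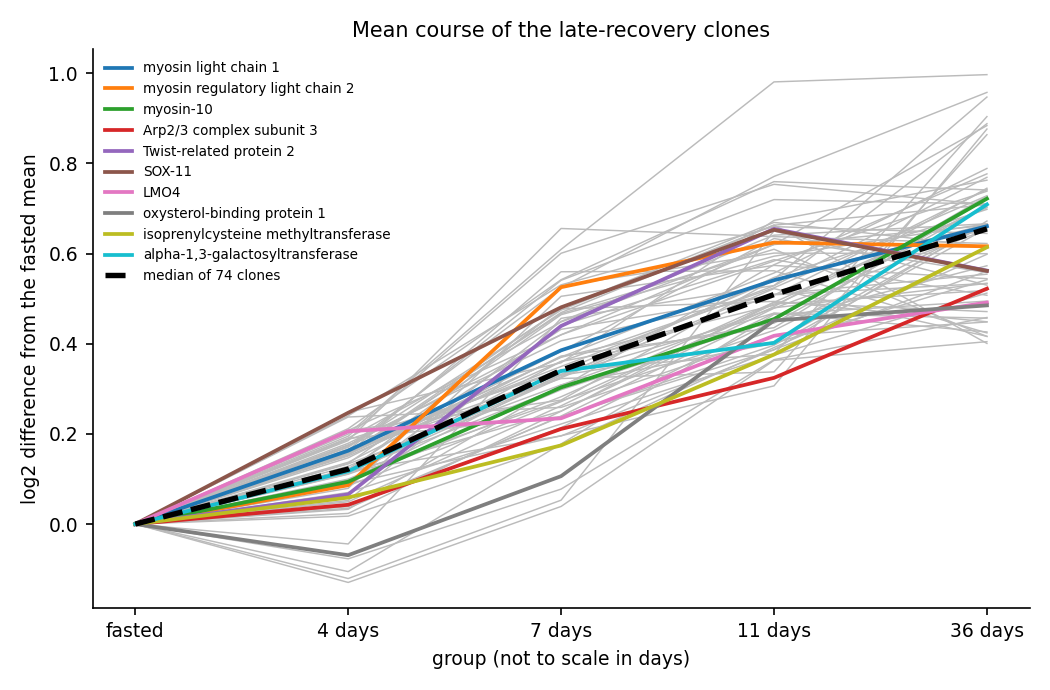
Mean course of each of the 74 clones as the log2 difference from the fasted mean (y axis) in the 5 groups (x axis, not to scale in days); grey lines are clones without a gene name, coloured lines the 10 named clones, and the dashed line the median. The median climbs through 0.12, 0.34, 0.51 and 0.66 at 4, 7, 11 and 36 days, and the spread of the lines at 4, 11 and 36 days is bounded by the limits that chose them.

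The course of single clones is shown by the order of their group means. The mean at 7 days lay between those at 4 and 11 days in 73 of 74 clones, an order that the limits at 4 and 11 days favour. After quantile normalization this held for 61 clones. With each array centred on the clones that had a value on all arrays, it held for 69. Fasted fish had the lowest mean for 68 clones and fish at 4 days for the other 6. The highest mean was at 7 days for 1 clone, at 11 days for 21 and at 36 days for 52. Over all tested clones it was at these times for 159, 370 and 366. The limits put fasted fish and fish of 4 days below those of 11 and 36 days in every member. These orders were therefore largely set by the choice of clones. Between 36 and 11 days the median difference was 0.09 over the 74 clones (range -0.26 to 0.57, positive in 52), against -0.08 over all tested clones, of which 36.1% were positive. This step depended on the scaling: after quantile normalization its median over the 74 clones was -0.03, with 31 positive, against -0.21 over all tested clones, and 31 clones were highest at 36 days. The differences from fasted fish kept their sign in all 74 clones at 7, 11 and 36 days. At these times the medians were 0.45, 0.52 and 0.52, against 0.08, 0.03 and -0.17 over all tested clones.

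The values of single fish followed the group means, with overlap. The mean over the 74 clones, each taken as the log2 deviation from its own average, was -0.33 ± 0.20 in fasted fish (SD, n = 8), -0.21 ± 0.07 on day 4 (n = 9), 0.03 ± 0.14 on day 7 (n = 9), 0.20 ± 0.12 on day 11 (n = 8) and 0.31 ± 0.12 on day 36 (n = 9). Its lowest, median and highest values were -0.63, -0.31 and -0.10 in fasted fish, -0.34, -0.20 and -0.11 on day 4, -0.26, 0.10 and 0.18 on day 7, -0.05, 0.22 and 0.34 on day 11, and 0.11, 0.35 and 0.45 on day 36. The fish of 36 days lay above all fasted fish and all fish of 4 days, which is a separation that the choice of clones favours. The fish of 7 days, which played no part in that choice, overlapped with every other group: fish 10 and fish 6 lay within the fasted range, and the other 7 lay above it.

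**Figure D2:**
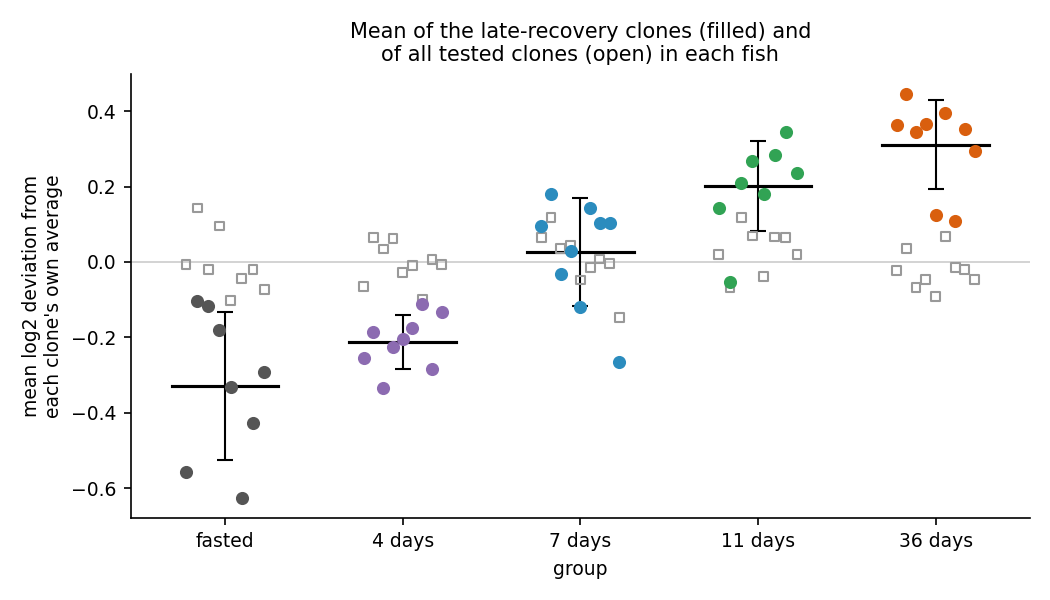
Mean log2 deviation of the 74 late-recovery clones (filled points) and of all 1561 tested clones (open squares) in each fish (y axis) by group (x axis); bars give the mean and SD of the filled points. The filled points climb with refeeding time while the open squares stay between -0.15 and 0.14 in all groups, and single low fish are seen at 7, 11 and 36 days.

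A few fish set the ends of these ranges for many clones at once. Fish 10 was the lowest of its group for 43 of the 70 clones measured in it at 7 days, and fish 3 for 51 of 73 at 11 days. At 36 days fish 8 and fish 6 were the lowest for 29 and 26 clones, and fish 3 was the highest for 36 of 74. Among fasted fish, fish 7 and fish 2 were the lowest for 32 and 24 clones. Some of these arrays were low over all tested clones as well. By that mean deviation fish 10 of 7 days (-0.15), fish 3 of 11 days (-0.07) and fish 6 of 36 days (-0.09) were the lowest of their groups. Fish 8 of 36 days (-0.01) and fasted fish 7 and fish 2 (-0.04 and -0.01) were not. Fasted fish also varied more over the 74 clones, where the median SD of log2 intensity in that group was 0.293. Over all tested clones it was 0.232. At 36 days the median SD was 0.228 over the 74 clones and 0.235 over all. Every limit subtracts the fasted mean, and how far the choice favours clones with a wide spread in fasted fish was not tested. Without fish 3 of 36 days the median difference from fasted at 36 days was 0.62, and without the 5 arrays that listed the fewest values it was 0.67.

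Few clones separated the fish of 2 groups completely. On day 4 of refeeding 0 of the 74 clones had every fish above every fasted fish, on day 7 there were 4, on day 11 there were 15 and on day 36 there were 16. Among all tested clones the share without overlap in that direction was 3.14% on day 4, 3.14% on day 7, 4.74% on day 11 and 3.65% on day 36. Nothing is read from the counts at 4, 11 and 36 days, since those contrasts chose the clones. The 4 clones at 7 days were 5.41% of the 74.

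The comparison of 7 days with fasted fish asked whether the change had begun by then, in fish that the choice did not use. The fasted fish did enter the choice, so the counts are not independent of it. All 74 clones had a positive difference, against 46.5% of all tested clones. At an adjusted p under 0.0001 in limma 3 of the 74 were higher (4.05%), none of them with a gene name, with log2 differences of 0.61, 0.54 and 0.47. Of all tested clones 3.27% were called higher and 1.09% lower, so that at this threshold the members' share was near that of the array. The threshold misses many differences of this size. In simulated data it called 23 of 100 clones given a log2 difference of 0.5 at 7 days, and 90 of 100 given 1. At an adjusted p under 0.05, 39 of the 74 were higher (52.7%) and 0 lower, while of all tested clones 12.4% were called higher and 7.56% lower. At an unadjusted p under 0.05, 57 of the 74 were higher and 0 lower, while of all tested clones 18.8% were higher and 14.2% lower. SAM (significance analysis of microarrays) at a false discovery rate of 0.01% called 15 of the 74 higher, and 6.73% of all tested clones. Of the 10 named genes 0 passed 0.0001 and 5 passed 0.05, namely both light chains, myosin-10, Twist-related protein 2 and SOX-11. The paper's selection of the genes it printed included 7 days against fasted in these same fish. For these 10 the fish of 7 days were therefore not outside the choice.

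Between neighbouring refed groups few clones passed the test. The limits at 4 and 11 days tilt the differences of 7 from 4 and of 11 from 7 days upward, so the counts are not independent of the choice. Between 7 and 4 days the median difference was 0.21, and 0 of the 74 clones passed 0.0001, as did 0.0% of all tested clones. At an adjusted p under 0.05, 4 of the 74 were higher, and of all tested clones 0.448% were higher and 0.192% lower. Between 11 and 7 days the median was 0.17, and 0 clones passed either threshold in limma, as did 0.0% of all tested clones. At an unadjusted p under 0.05, 31 of the 74 were higher at 7 than at 4 days and 0 lower, while of all tested clones 5.83% were higher and 2.63% lower. At 11 against 7 days 17 of the 74 were higher and 0 lower, while of all tested clones 3.01% were higher and 1.35% lower. SAM called 0 of the 74 in both comparisons, and 0.0% of all tested clones higher.

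Between 36 and 7 days more clones passed the looser threshold. The median difference was 0.32, positive in 69 of 74, against -0.07 over all tested clones. In limma 0 of the 74 passed 0.0001, and of all tested clones 0.0641% were called higher and 1.86% lower. At 0.05, 40 of the 74 were higher (54.1%), while of all tested clones 12.3% were higher and 16.5% lower. At an unadjusted p under 0.05, 49 of the 74 were higher and 0 lower, while of all tested clones 16.0% were higher and 24.2% lower. SAM called 2 of the 74 higher, and 2.56% of all tested clones. The fish of 36 days entered the choice, so these counts favour a rise. After quantile normalization 1 of the 74 was higher and 1 lower at 0.05, and of all tested clones 1.54% were higher and 37.6% lower. That scaling moved the median of all tested clones for this comparison to -0.28, and the median of the 74 to 0.08. Between 36 and 11 days both groups had entered the choice, so nothing is read from the counts. In limma 0 of the 74 passed 0.0001, and of all tested clones 0.0% were called higher and 0.833% lower. At 0.05, 5 of the 74 were higher (6.76%), while of all tested clones 7.69% were higher and 16.7% lower. At an unadjusted p under 0.05, 12 of the 74 were higher and 1 lower, while of all tested clones 10.5% were higher and 25.9% lower. SAM called 1 of the 74 higher, and 3.4% of all tested clones.

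The myosin light chains were the named members nearest to the force-producing filaments. Myosin light chain 1 of skeletal muscle, the essential light chain that steadies the lever arm of fast myosin (1RT69B20_D_A10), was measured in all 43 fish. Its lowest, median and highest normalized intensities were 3.87, 4.80 and 5.66 in fasted fish, 4.35, 5.30 and 6.36 on day 4, 4.77, 6.28 and 7.64 on day 7, 5.44, 7.09 and 8.12 on day 11, and 5.47, 7.71 and 9.10 on day 36. The ranges overlapped at each step, but 7 of 9 fish at 7 days and 8 of 9 at 36 days lay above every fasted fish. The difference from fasted was 0.39 at 7 days (SE 0.10, adjusted p = 0.00371) and 0.66 at 36 days, a 1.58-fold mean. Between 36 and 7 days the difference was 0.28 (SE 0.10, adjusted p = 0.0303). For this and the other named genes, the limit at 36 days favours a rise in that comparison.

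Myosin regulatory light chain 2, the light chain whose phosphorylation tunes the motor (tcad0006.d.20), had most of its difference from fasted fish by 7 days. Its lowest, median and highest intensities were 3.11, 4.23 and 4.50 in 7 fasted fish, 3.37, 4.39 and 5.93 on day 4, 4.66, 5.69 and 7.38 on day 7, 4.78, 5.72 and 9.01 on day 11, and 4.41, 6.25 and 8.15 on day 36. All 9 fish of 7 days and all 8 of 11 days lay above the highest fasted fish. The difference from fasted was 0.53 at 7 days (SE 0.13, adjusted p = 0.00233). At 36 days it was 0.62, and 36 days differed from 7 days by 0.09 (SE 0.12, adjusted p = 0.608).

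For the 2 cytoskeletal genes the difference from fasted fish was larger at 36 days than at 7 days. Myosin-10, a motor that pulls on actin (tcbk0052.i.21), had lowest, median and highest intensities of 3.88, 5.55 and 7.44 in fasted fish, 4.56, 6.12 and 7.24 on day 4, 5.03, 7.11 and 8.59 on day 7, 6.36, 7.89 and 9.05 on day 11, and 6.99, 9.74 and 11.1 on day 36. Its median was highest at 36 days, when 8 of 9 fish exceeded every fasted fish, against 4 of 9 at 7 days. The difference from fasted was 0.30 at 7 days (SE 0.11, adjusted p = 0.0480, but 0.0576 after recentring of the arrays and 0.0793 with the replicate number as a block) and 0.72 at 36 days, and that of 36 from 7 days was 0.42 (SE 0.11, adjusted p = 0.00484).

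Arp2/3 complex subunit 3 is part of the assembly that starts new branches on actin filaments (tcbk0051.o.15). Its lowest, median and highest intensities were 1.92, 2.98 and 4.22 in fasted fish, 2.56, 3.26 and 3.71 on day 4, 2.79, 3.65 and 4.13 on day 7, 2.51, 3.88 and 4.52 on day 11, and 3.66, 4.36 and 5.82 on day 36. The groups overlapped widely, and 5 of 9 fish at 36 days but 0 of 9 at 7 days lay above all fasted fish. The difference of 7 days from fasted was 0.21 (SE 0.13, adjusted p = 0.241), and that of 36 from 7 days was 0.31 (SE 0.12, adjusted p = 0.0494).

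Of the 3 regulators of transcription, Twist-related protein 2 and SOX-11 had their highest mean at 11 days. Without quantile normalization the mean at 36 days was close to it. Twist-related protein 2, a basic helix-loop-helix factor that in mammals holds back muscle differentiation (tcay0033.p.11), had lowest, median and highest intensities of 4.48, 6.44 and 7.99 in fasted fish, 5.48, 6.48 and 8.51 on day 4, 6.20, 8.68 and 10.6 on day 7, 7.69, 10.6 and 12.6 on day 11, and 7.69, 10.1 and 10.5 on day 36. Of the fish of 4 days 8 of 9 lay within the fasted range, while 7 of 9 fish at 7 days were above it. Its difference from fasted was 0.44 at 7 days (SE 0.11, adjusted p = 0.00165), 0.66 at 11 days and 0.56 at 36 days. Between 36 and 11 days it differed by -0.09 (SE 0.11).

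SOX-11, an HMG-box factor known from developing tissues of vertebrates (1RT50C19_A_B10), had lowest, median and highest intensities of 13.0, 15.1 and 24.3 in fasted fish, 16.1, 20.5 and 24.4 on day 4, 19.3, 23.7 and 27.4 on day 7, 19.4, 27.1 and 31.1 on day 11, and 14.9, 27.1 and 31.7 on day 36. Fasted fish reached up to the range of the refed groups, and 5 of 9 fish at 36 days exceeded all of them. At 4 days the difference from fasted was 0.247, just inside the limit. It was 0.48 at 7 days (SE 0.13, adjusted p = 0.00485), 0.65 at 11 days and 0.56 at 36 days. Between 36 and 11 days SOX-11 differed by -0.09 (SE 0.13).

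LMO4, a LIM-domain cofactor that bridges transcription factors (1RT163P20_D_H10), had lowest, median and highest intensities of 0.628, 0.782 and 0.962 in fasted fish, 0.808, 0.934 and 1.05 on day 4, 0.776, 0.951 and 1.12 on day 7, 0.915, 1.05 and 1.28 on day 11, and 0.930, 1.13 and 1.63 on day 36. Fish 3 held the highest value at 36 days, well apart from the next fish at 1.23. The difference from fasted was 0.23 at 7 days (SE 0.10, adjusted p = 0.0748) and 0.49 at 36 days, and that of 36 from 7 days was 0.26 (SE 0.09, adjusted p = 0.0328).

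The 3 genes of the reticulum and Golgi, with myosin-10, had the largest differences between 36 and 7 days among the 10 named genes. Oxysterol-binding protein 1, which carries sterol between these membranes (1RT28G01_A_D01), was lowest at 4 days. Its lowest, median and highest intensities were 1.48, 1.73 and 2.12 in 7 fasted fish, 1.63, 1.68 and 1.83 in 7 fish on day 4, 1.44, 1.99 and 2.30 on day 7, 2.01, 2.36 and 3.17 on day 11, and 1.92, 2.50 and 3.01 on day 36. Fish of 7 days spanned the fasted range, while 7 of 8 fish at 11 days and 8 of 9 at 36 days were above it. Its difference from fasted was 0.11 at 7 days (SE 0.10, adjusted p = 0.459), and that of 36 from 7 days was 0.38 (SE 0.09, adjusted p = 0.00269).

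Protein-S-isoprenylcysteine O-methyltransferase, the reticulum enzyme that caps the tail of prenylated proteins such as Ras (tcay0020.j.18), had lowest, median and highest intensities of 2.40, 2.74 and 3.65 in 7 fasted fish, 2.23, 3.08 and 3.75 on day 4, 2.50, 3.30 and 4.09 on day 7, 3.04, 3.74 and 4.84 on day 11, and 3.30, 4.66 and 5.93 on day 36. At 36 days 8 of 9 fish were above every fasted fish, against 2 of 9 at 7 days. The difference of 7 days from fasted was 0.17 (SE 0.12, adjusted p = 0.311), and that of 36 from 7 days was 0.44 (SE 0.11, adjusted p = 0.00429).

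N-acetyllactosaminide alpha-1,3-galactosyltransferase, a Golgi enzyme that adds galactose to sugar chains (tcbk0054.p.10), varied widely among fasted fish. Its lowest, median and highest intensities were 3.11, 5.71 and 7.99 in fasted fish, 4.75, 6.27 and 7.25 on day 4, 5.42, 7.38 and 8.96 on day 7, 4.58, 7.54 and 9.18 on day 11, and 7.11, 8.85 and 12.6 on day 36. Every group overlapped with fasted fish, and 7 of 9 fish at 36 days lay above all of them. The difference of 7 days from fasted was 0.34 (SE 0.14, adjusted p = 0.0882), and that of 36 from 7 days was 0.37 (SE 0.14, adjusted p = 0.0401).

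**Figure D3:**
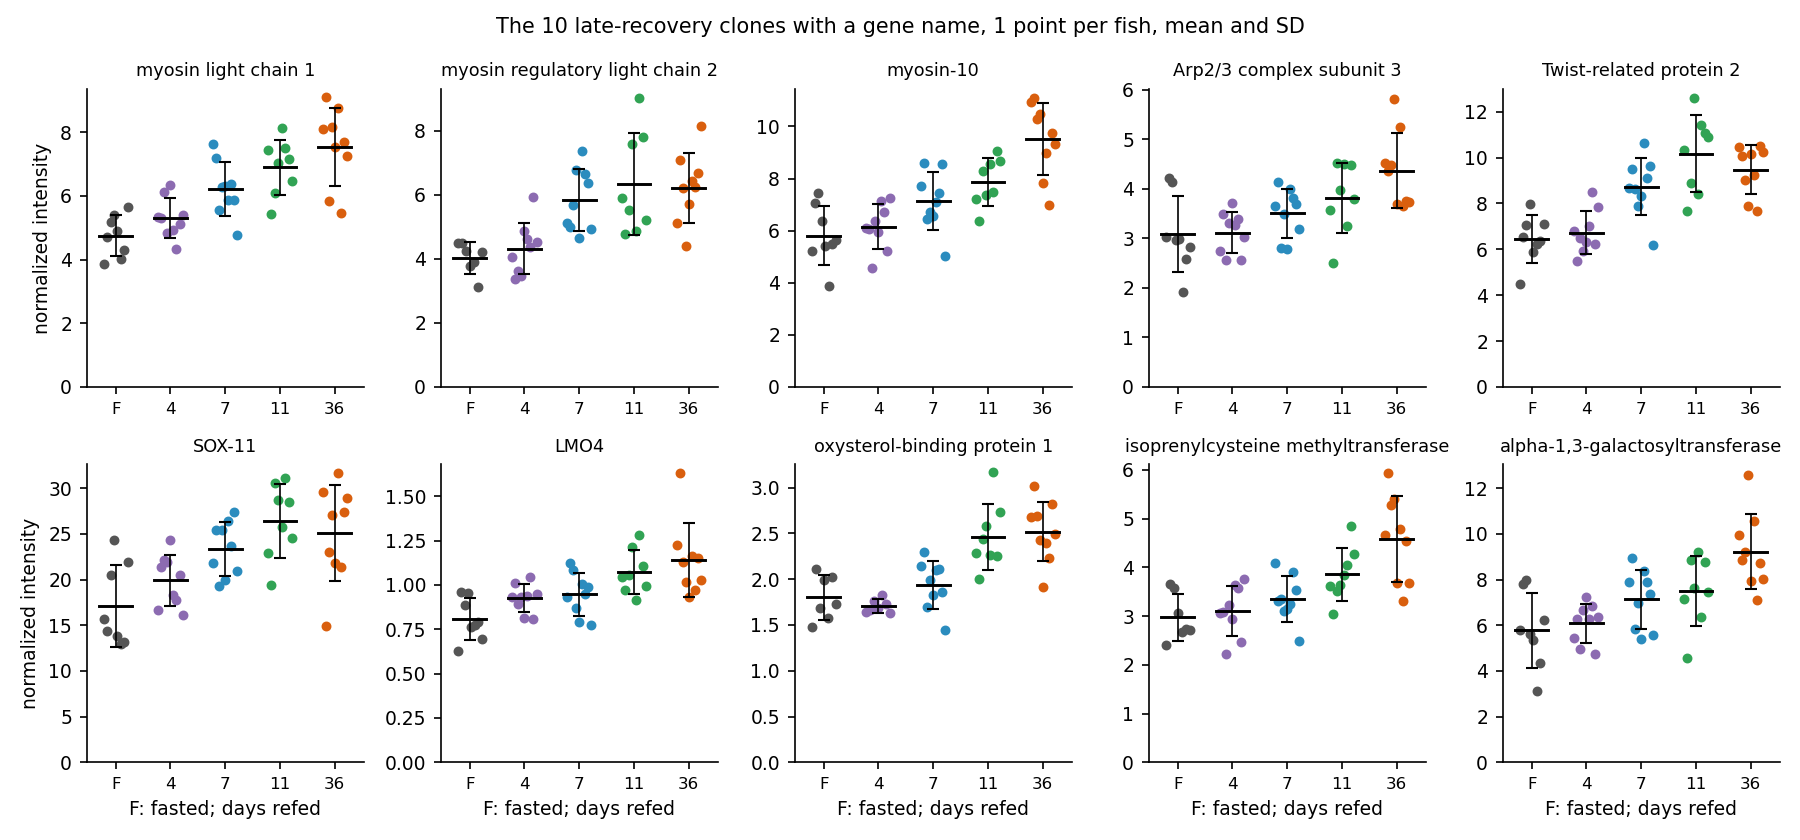
Normalized intensity (y axis, linear, from 0) of the 10 named clones in each fish, by group (x axis, F for fasted and days refed), with the mean and SD as bars. Myosin regulatory light chain 2 has its 9 fish of 7 days above all fasted fish, whereas Arp2/3 complex subunit 3 has 0 of 9 above them.

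Put side by side, 0 of the 10 named genes passed 0.0001 in any of the 5 tested comparisons. At 0.05 the comparison of 36 with 7 days held for 7 of 10: myosin light chain 1, both cytoskeletal genes, LMO4 and the 3 genes of the reticulum and Golgi. Of all tested clones 12.3% were higher at that threshold. The limit at 36 days helped choose these genes, so this count and their p-values favour a rise. By their clone names, myosin-10, Arp2/3 complex subunit 3 and alpha-1,3-galactosyltransferase lie on plates 51 to 61 of the tcbk library. The 96 other tested clones of those plates had a median difference from fasted of -0.02 at 7 days and 0.17 at 36 days. Over all tested clones these medians were -0.02 and -0.05. The part of plate position in the differences of these genes was not tested. Myosin regulatory light chain 2, Twist-related protein 2 and SOX-11 did not pass between 36 and 7 days. Their highest mean was at 11 days, but 36 days differed from it by only -0.008 (SE 0.13), -0.09 (SE 0.11) and -0.09 (SE 0.13). The median of myosin regulatory light chain 2 was higher at 36 days (6.25) than at 11 days (5.72). After quantile normalization 0 of 10 passed 0.05 between 36 and 7 days (adjusted p = 0.0985 to 0.872), while the 5 genes that passed at 7 days against fasted still did (adjusted p = 0.00303 to 0.0385). Under that scaling LMO4 differed by -0.03 between 36 and 7 days, while the others of the 7 stayed positive, from 0.055 to 0.249. For myosin regulatory light chain 2, Twist-related protein 2 and SOX-11 the difference of 36 from 7 days became -0.14, -0.07 and -0.26. That of 36 from 11 days became -0.14 (SE 0.15), -0.19 (SE 0.13) and -0.37 (SE 0.16). How near their means at 36 and 11 days lay thus depended on the scaling.

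Among clones without a gene name, tcac0005.l.02 had the largest difference at 7 days and tcad0008.o.20 the largest between 36 and 11 days. The first had lowest, median and highest intensities of 1.59, 2.40 and 3.59 in fasted fish, 1.99, 2.72 and 4.50 on day 4, 2.63, 3.83 and 5.24 on day 7, 2.52, 3.68 and 5.30 on day 11, and 2.80, 3.69 and 5.18 on day 36. Its 7-day fish overlapped with fasted fish, with a difference from fasted of 0.66 (SE 0.16), and it is the 1 clone whose mean was highest then. The second was measured in 31 fish, with lowest, median and highest intensities of 0.756, 0.847 and 1.01 in 5 fasted fish, 0.744, 0.999 and 1.11 in 6 fish on day 4, 0.765, 0.957 and 1.36 in 6 on day 7, 1.03, 1.07 and 1.18 in 5 on day 11, and 1.13, 1.67 and 2.11 in 9 on day 36. All 9 fish of 36 days exceeded every fasted fish, and 36 days differed from 11 days by 0.57 (SE 0.13). Both clones were picked for these differences, which are therefore given with no test.

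The clones also shared features that the limits did not use. A value was listed on all 43 arrays for 48 of the 74 (64.9%), against 44.7% of all tested clones, and their median normalized intensity was 5.01 (quartiles 3.03 and 8.40), against 3.02. Intensity on a spot depends on the clone as well as on the transcript, so this says that the spots were bright and not that the transcripts were abundant. By library, given by the first letters of a clone's name, 25 of 293 tested tcbk clones were members (8.53%), 15 of 162 tcay clones (9.26%), 6 of 67 tcad clones (8.96%) and 20 of 752 1RT clones (2.66%), against 4.74% overall. The tcac and tcab libraries gave 4 and 2 members, and tcav and tcba 1 each.

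Within the tcbk library the members were unevenly placed. Plates 51 to 61, as numbered in the clone names, held 22 members among 118 tested clones (18.6%), and the other tcbk plates 3 among 175. Over the array 49 of the 299 plates with a tested clone held a member, and 4 of these plates held 18 members among 50 tested clones. The 96 other tested clones of tcbk plates 51 to 61 had a median difference from fasted of -0.02 at 7 days, 0.01 at 11 days and 0.17 at 36 days, against -0.05 at 36 days over all tested clones. Relative to the median of the other tested clones on their own plate, which could be had for 67 members, the members' median difference from fasted was 0.19, 0.42, 0.52 and 0.58 at 4, 7, 11 and 36 days, against 0.12, 0.34, 0.51 and 0.66 for the same clones without that subtraction. Of these 67 members 57, 65, 67 and 65 stood above their plate's median at 4, 7, 11 and 36 days. The limits favour the counts at 11 and 36 days, and all 4 counts rest on the fasted means that entered the choice. The part of plate position in the choice of clones was not tested.

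Fish-to-fish variation inside the groups was shared between members. After the group means were removed, the median Pearson's r over fish was 0.31 for the 2701 pairs of members (quartiles 0.08 and 0.51), against 0.07 for all pairs of tested clones. Each r rests on 20 fish or more, the pairs share fish, arrays and normalization, and no p is given. Most of these arrays also gave the group means that chose the clones. How far that choice favours clones that vary alike was not tested. Isoprenylcysteine methyltransferase had a median r of 0.49 with the other members, myosin-10 of 0.46, LMO4 of 0.43 and oxysterol-binding protein 1 of 0.42, while myosin regulatory light chain 2 stood at 0.16 and SOX-11 at 0.19.

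Neighbouring clones varied more alike than distant ones. The 10 pairs of members on the same plate and row had r of 0.70 to 0.96, with a median of 0.88, and the 33 pairs on the same plate in different rows had a median of 0.73. Among other tested clones the medians were 0.41 over 312 pairs in the same row and 0.19 over 4283 pairs on the same plate in different rows, so position was tied to shared variation outside the members too. Myosin-10 had r of 0.90 with the member in its row, Arp2/3 complex subunit 3 had 0.90 and 0.92 with the 2 members in its row, and alpha-1,3-galactosyltransferase had 0.91 with a clone in its row that was not a member. With row mates that were not members LMO4 had 0.74 and SOX-11 had 0.33, and the other 5 named clones had no tested row mate. Such clones were counted as separate members here, and 14 of the 74 lay in 6 rows with another member. The 24 other clones in rows that hold a member had median differences from fasted of 0.006, 0.13, 0.21 and 0.18 at 4, 7, 11 and 36 days. Whether neighbours carry the same transcript is not given in the sources used here, and the part of position in these correlations was not tested.

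**Figure D4:**
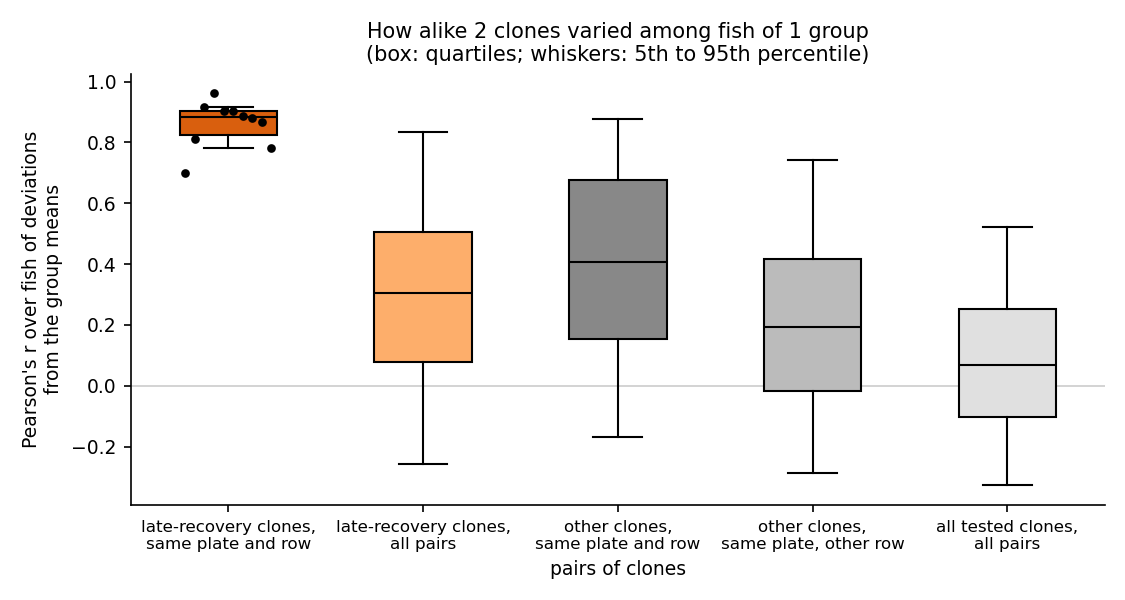
Pearson's r over fish between the deviations of 2 clones from their group means (y axis) for 5 kinds of pair (x axis); boxes give quartiles, whiskers the 5th and 95th percentiles, and points the 10 pairs of members in the same plate and row. The medians are 0.88 for members of the same row, 0.31 for all pairs of members, 0.41 and 0.19 for other clones of the same row and of other rows of a plate, and 0.07 for all pairs.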

How the data were processed

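Muscle RNA of 43 trout was hybridised as 33P-labelled cDNA, 1 fish per nylon array. The authors excluded spots whose vector oligonucleotide gave less than 3 times background, scaled every remaining signal to that oligonucleotide and to the median of its array, and deposited linear normalized intensities. The positive values listed for an array nevertheless had medians from 2.04 to 3.63. The highest median was on the array with the fewest values (1441, fish 2 of 36 days). Here the 193 control rows were left out, empty cells (285556) and zeros (10107) were taken as missing, and intensities were log2-transformed with no offset. The 1561 clones with a value in 5 or more fish of each group entered 1 fit of all 43 arrays with a mean for each group (limma 3.58.1 under R 4.3.3). P-values were adjusted by Benjamini and Hochberg over all 1561 clones in each comparison, at thresholds of 0.0001 and 0.05. SAM was rewritten in Python 3.11.15 (100 permutations, false discovery rate 0.01%). That rate was applied to the median count of false calls over permutations, and the mean count was allowed a higher rate. The fit and SAM were tested on simulated data. Differences between group means are unweighted.

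The members, the thresholds and the lists were chosen with earlier results of these data known. Named clones are the 10 with a printed gene label and the unnamed clones with the largest difference of 7 days from fasted and of 36 from 11 days. No pathway list could be formed, since 64 members have no gene name. Alternatives covered the threshold, SAM, normalization, offset, square roots, filters, the arrays used, weights for arrays, a block on the replicate number, a robust trended variance and a covariate for how many values an array listed. Leaving out each fish in turn, the plate medians, the medians under other scalings and the differences without the arrays in doubt were alternatives chosen after seeing the data. The plots were drawn with matplotlib 3.10.9.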

Additional observations from a re-analysis of the deposited data

Results flagged for a closer look

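The highest value of LMO4 at 36 days, 1.63 in fish 3, lay far from the next value of 1.23, by more of the group's range than Dixon's 95% limit for 9 fish allows. It was the only one of 65 groups of values checked (12 clones and the mean over the 74 clones, in 5 groups each) that passed the limit, and chance flags about 1 group in 20. Fish 3 was also the highest fish of 36 days for 36 of the 74 clones. The remaining members were not checked for outliers, and at least 2 hold a value far from its group. Clone tcbk0059.o.16 read 30.1 in fish 3 of 11 days, against medians of 1.95 at 11 days and 1.98 in fasted fish. The other fish of 11 days read 1.33 to 2.64 in that clone, and fasted fish 1.14 to 2.46. Its difference from fasted of 0.65 at 11 days therefore rests on that value, as does its place among the 74. It is also counted among the 21 clones whose highest mean was at 11 days. Clone tcbk0055.i.22 read 8.61 in fish 3 of 4 days, against a median of 3.37 in that group.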

How the results depend on the processing

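The counts of clones called depended on the processing. For 7 days against fasted, against 3 of 74 it was 39 at an adjusted p under 0.05, 15 by SAM, 10 with array weights, 1 after quantile normalization, 1 on square roots and 0 when only both groups were fitted. For 7 against 4 days it was 4 at 0.05, for 36 against 7 days, where the count was 0, it was 40 at 0.05, 2 by SAM, 2 after recentring of the arrays, 1 on square roots and 1 with array weights, and for 36 against 11 days 5 at 0.05 and 1 by SAM. Apart from the replicate block, the other alternatives kept these counts within 1.5 times. The share over all tested clones is given above for 0.05 and for SAM. For the other alternatives it is not given, so their counts are not read as particular to the 74 clones. Quantile normalization turned the median difference of 36 from 11 days over the 74 clones to -0.03, against 0.09, and lowered that of 36 from 7 days to 0.084, against 0.32.

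With the replicate number as a block, 1 clone was called at 7 days against fasted. The numbers were not taken to pair fish, which were different animals in each group: 28 of 82 same-numbered pairs had a correlation of deviations over 0.1, and 8 of 43 fish correlated best with their own number.

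The limits found 50 clones after quantile normalization (48 of them among the 74) and 48 when a value on all arrays was required. Leaving out 1 fish in turn gave 65 to 76 clones, and 45 of the 74 were found whichever fish was left out. The median difference of 7 days from fasted kept its direction, and the 12 named clones their direction and their side of 0.0001 in that comparison, under the 8 alternatives run. At 0.05 myosin-10 lost its call there after recentring and with the block, LMO4 gained one with the block, with array weights and without fish 3 of 36 days, and alpha-1,3-galactosyltransferase gained one with array weights and without the 5 arrays with the fewest values. Spots without a value were not modelled, and dim clones are thus under-represented.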
